A study of Arabidopsis thaliana with 6 samples.

Results

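Transcripts of 8 genes encoded by the mitochondrial genome of Arabidopsis thaliana were compared between sorted root cells and whole roots. The genes are the cytochrome oxidase subunits cox1 and cox2, the cytochrome c maturation genes ccb203, ccb206, ccb382 and ccb452, the maturase gene matR and orfX. They were taken as the probe sets that the platform annotation pairs with exactly 1 of these symbols, which gave 8 probe sets, 1 per gene, of 22810 on the array. Current RefSeq names differ for 5 of them: ccb203 is listed as ccmFN2, ccb206 as ccmB, ccb382 as ccmFN1, ccb452 as ccmFC and orfX as mttB (also tatC).

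The sorted group held 3 samples of root protoplasts, cells freed from their walls, that had run through a fluorescence-activated sorter with no gate, since every cell was kept. The other group held 3 samples of intact roots that were never protoplasted, so the comparison asks what protoplasting and sorting do to transcript levels. Both groups were Columbia seedlings, 6 days after germination, and both had spent 24 hours without iron, on medium with 0.3 mM ferrozine, an iron chelator, so no iron-replete sample enters any comparison. Each sample was read on 1 Affymetrix array as MAS5 signal intensities. The labels do not say whether replicates were separate cultures, so p-values speak only of the scatter among these samples, part of which may be technical.

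Cytochrome oxidase is complex IV of the respiratory chain: it passes electrons from cytochrome c to oxygen, and its catalytic core is built from mitochondria-encoded subunits, while the smaller subunits come from nuclear genes. Cytochrome c works only once haem has been attached to it, and in plant mitochondria this is done by a pathway like that of bacteria. Several of its membrane parts are encoded in the organelle, and its remaining parts are nuclear. matR lies within an intron of nad1 and codes for a protein that helps group II introns to splice; orfX codes for a membrane protein related to TatC of the twin-arginine protein transport route. Plant mitochondrial RNA carries few poly(A) tails, and those it carries mark it for decay.

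All 8 genes gave a stronger signal in sorted cells than in whole roots, with no overlap between the groups for any of them. Among all tested probe sets 28.8% had every sorted-cell array above every whole-root array, and 36.5% the opposite. The tested probe sets were those left by a filter on dim signal, which ccb203 did not pass. Of the 7 genes that passed, 5 did so only through their sorted-cell signal, a selection that favours such a gap. The count of 8 genes without overlap therefore carries no weight against that share. The smallest gap was that of matR, whose lowest sorted-cell value was 3.83 times its highest whole-root value, and the widest that of orfX, at 34.1 times. Every sorted-cell value of the 8 genes (24 in all) stood above the background level, taken as the brightest of 27 bacterial control probe sets on the same array, and 18 of the 24 whole-root values did. That level was 14.3 to 57.4 on sorted-cell arrays and 10.4 to 16.8 on whole-root arrays.

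**Figure D1:**
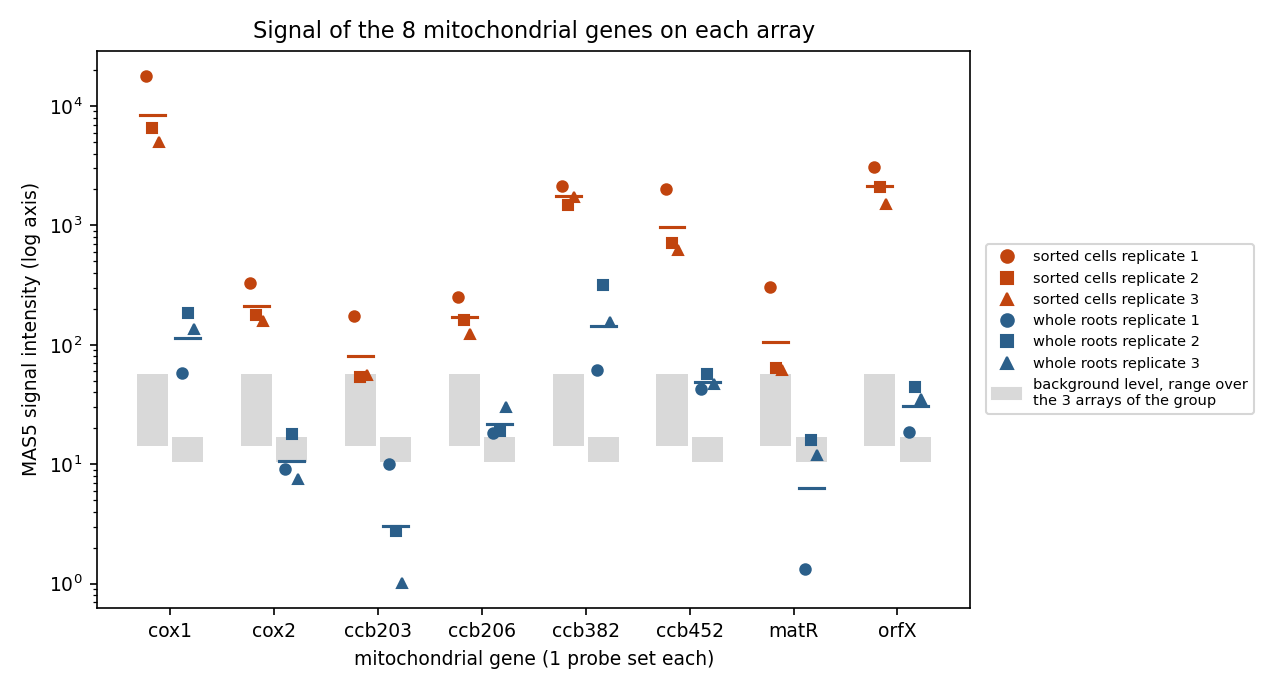
Signal intensity (log axis) of the 8 mitochondrial genes on each of the 6 arrays, with sorted cells left of whole roots, symbols for the replicate number, bars for the mean of log2 values and grey blocks for the range of the background level in that group. The sorted-cell points of every gene lie above its whole-root points, and those of sorted-cell replicate 1 are the highest of each gene.

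cox1 codes for the subunit that holds the haem and copper centre where oxygen is reduced. It read 17814, 6515 and 4993 on sorted-cell arrays 1, 2 and 3, against 57.8, 185.9 and 136.3 on the whole-root arrays. Replicate 1 was thus the brightest sorted-cell array and the dimmest whole-root array. The difference between the groups was 6.20 on the log2 scale, or 73.4-fold (SE 0.53 in log2; limma adjusted p = 3.64e-05).

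cox2, the subunit that takes electrons from cytochrome c, gave 332.1, 177.7 and 159 in sorted cells, against 9.13, 17.8 and 7.504 in whole roots. Only whole-root replicate 2 stood above the background level, so the size of the difference, 4.30 on the log2 scale (SE 0.47; limma adjusted p = 0.000119), is imprecise. An offset of 64, put on each value ahead of the log, brought it to 1.88 and cox1 to 5.52.

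The maturation genes code for parts of the haem delivery and haem attachment machinery. ccb382 and ccb203 code for separate pieces of what is 1 protein, CcmF, in bacteria, and ccb452 codes for a further piece. ccb382 read 2132, 1474 and 1725 in sorted cells, against 61.3, 317.8 and 154.7 in whole roots, where it was the least even of the maturation genes above background. Its difference was 3.60 on the log2 scale (SE 0.50; limma adjusted p = 0.000394), and 2.99 without whole-root replicate 1. ccb452 read 2014, 706.9 and 624.2 in sorted cells and 42.5, 56.8 and 47.4 in whole roots, a difference of 4.31 (SE 0.40; limma adjusted p = 5.55e-05).

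The whole-root values of ccb452 were the closest together among the 8 genes, with a log2 SD of 0.21, whereas its sorted-cell values had a log2 SD of 0.93, with replicate 1 the highest. ccb206, for the membrane part of the haem transporter, showed the smallest difference measured on both sides: 252.9, 160 and 122.3 in sorted cells, against 18.1, 19.1 and 30.0 in whole roots (log2 difference 2.97, SE 0.38; limma adjusted p = 0.000245).

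ccb203 stood at 175.3, 54.1 and 56.4 in sorted cells. Its whole-root values of 10.1, 2.75 and 1.02 were all under the background level, so only a bound can be given, at least 6.39-fold higher in sorted cells. It was also the one gene left out by the filter on dim probe sets, with a mean of 49.9 over the 6 arrays where the filter lay at 53.9. In a fit with no filter its limma adjusted p was 0.00222.

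matR was the least even of the 8 genes. It read 302.2, 64.3 and 61.1 in sorted cells, against 1.33, 15.95 and 12.001 in whole roots, where replicates 2 and 3 were above the background level. The difference of 4.06 on the log2 scale had the largest standard error of the 7 tested genes, 1.08 (limma adjusted p = 0.0112). It was 2.94 without whole-root replicate 1, 3.31 without sorted-cell replicate 1 and 1.30 with an offset of 64, with a call in each case.

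orfX rose nearly as much as cox1. It read 3098, 2082 and 1517 in sorted cells, against 18.6, 44.5 and 35.0 in whole roots, all above background. The log2 difference was 6.12, or 69.6-fold (SE 0.36; limma adjusted p = 8.7e-06). The probe set names of orfX, matR and ccb452 end in _s_at, Affymetrix's mark for probes that match more than 1 sequence, although the annotation lists a single symbol for each. A copy of much of the mitochondrial genome also lies in a nuclear chromosome of Columbia, so signal of the organelle and of that copy cannot be told apart here.

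**Figure D2:**
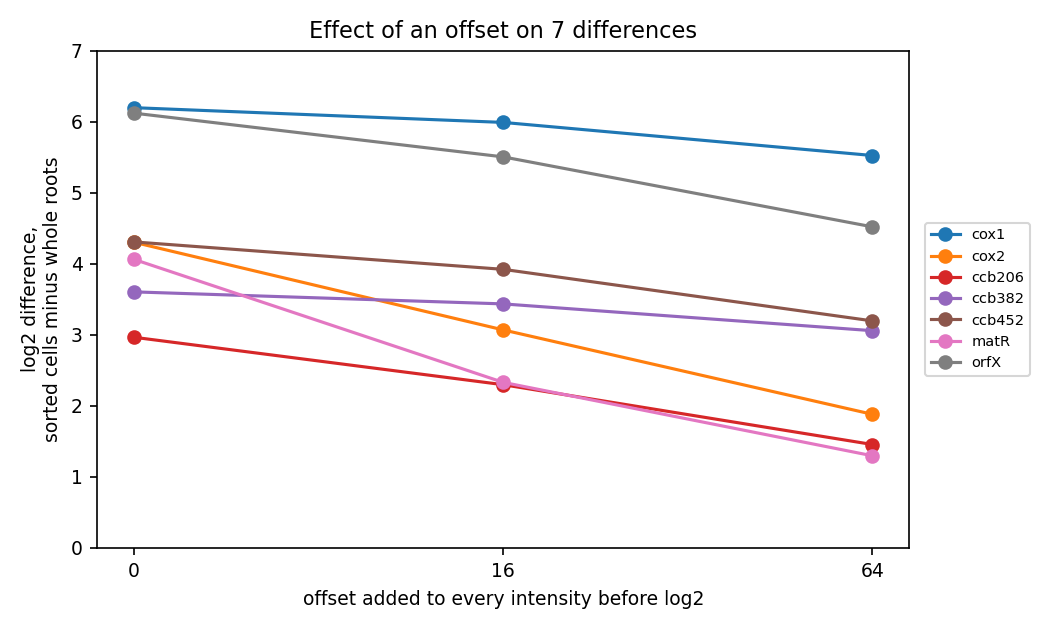
Log2 difference (sorted cells minus whole roots) of 7 genes at offsets of 0, 16 or 64 on the intensities; ccb203 is left out because its whole-root signal was not above background. cox1 and orfX remain the 2 largest, at 5.52 and 4.52 with an offset of 64, while matR, cox2 and ccb206 lie between 1.30 and 1.88.

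The 7 genes that passed the filter were all called higher in sorted cells, where 24.7% of the 13647 probe sets tested were; at 2-fold or more 18.4% of them were called higher and 21.1% lower. Of these 7, however, 5 passed the filter only through their sorted-cell signal, since their whole-root means lay under it, so that this count carries no weight. With no filter all 8 were called, against a background of 17.6% of 22746 probe sets called higher and 18.7% lower. The median log2 difference of the 8 genes was 4.31, or 4.18 with ccb203 at its bound, and that of all tested probe sets was -0.16. The medians of the 8 genes rest in part on cox2, whose whole-root signal was above background on replicate 2 only, so they are imprecise too. A log2 difference of at least 3 was seen in 3.33% of tested probe sets and one of at least 4 in 1.73%. The rise was not particular to mitochondrial genes. Over plastid probe sets with 1 symbol, the median log2 intensity averaged 9.63 in sorted cells and 5.66 in whole roots, a difference of 3.96. More mitochondrial RNA per cell and a larger share of cells rich in mitochondria cannot be told apart in such bulk samples, and other causes were not tested.

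The labelled tissue was checked against markers. Of 4 root hair markers 2 had a probe set with 1 symbol, the expansin genes EXPA7 and EXPA18, which averaged 223.5 and 171.6 in sorted cells and 1093 and 1702 in whole roots. Of 3 ground tissue, 3 stele and 3 root cap markers 1 each did. JKD of the ground tissue averaged 27.1 in sorted cells and 114.2 in whole roots. LHW of the stele averaged 315.8 in sorted cells and 540.5 in whole roots, and the root cap gene AT1G65570 averaged 4489 in sorted cells and 202.4 in whole roots. The green tissue genes RCA and LHCB4.1, measured of 4 listed, averaged 45.1 and 57.3 in sorted cells and 368.6 and 172.8 in whole roots. The part of these shifts in the signal of the mitochondrial genes was not tested.

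Among sorted cells all 8 genes were highest on replicate 1, as were 39.6% of all tested probe sets. matR stood 2.27 higher there on the log2 scale than on the mean of the other two arrays, cox1 1.64, ccb203 1.67 and ccb452 1.60. cox2 (0.98), ccb206 (0.85), orfX (0.80) and ccb382 (0.42) differed less. Over all tested probe sets the median of this difference was 0.0097. The excess was not particular to these genes. The median log2 intensity of other mitochondrial probe sets with 1 symbol was 1.61 higher on replicate 1 than on the other sorted-cell arrays, and that of plastid probe sets 1.60. In whole roots 6 of the 8 genes were lowest on replicate 1, the exceptions being cox2 and ccb203, and 36.3% of tested probe sets were.

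Several control probe sets moved with that pattern. The 18 probe sets for bacterial biotin genes and the phage cre gene, whose labelled transcripts Affymetrix protocols add to the hybridisation mix in fixed amounts, averaged 10.46 ± 0.72 in sorted cells and 8.84 ± 0.067 in whole roots (mean log2 intensity ± SD, n = 3 each). An exact permutation test, two-sided, gave p = 0.1, below which 3 against 3 arrays cannot go. All 18 were higher on every sorted-cell array than on any whole-root array, by 1.61 on the log2 scale on average, and all 18 were highest on sorted-cell replicate 1. The labels do not say how these controls were added. Their mean was 1.07 higher on sorted-cell replicate 1 than on the other two, where the median of the 8 genes was 1.29 higher.

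For actin, the 3′ probe set exceeded the 5′ one by 5.53, 4.09 and 3.37 (log2) on the sorted-cell arrays, most on replicate 1, and by 1.60 to 1.85 in whole roots. For GAPDH the excess was 5.12, 3.41 and 2.44 in sorted cells and 0.67 to 0.91 in whole roots. Ubiquitin showed a much smaller gap, with 3.49, 2.20 and 2.09 in sorted cells and 1.79 to 1.97 in whole roots. The control for 25S ribosomal RNA went against the pattern of the 8 genes only in the order of the sorted-cell arrays. It was 12.5, 13.2 and 13.0 (log2) in sorted cells, lowest on replicate 1, and 6.61, 9.11 and 8.56 in whole roots. Between the groups 25S was 4.82 higher in sorted cells, the same direction as the 8 genes. Its dimmest whole-root array was replicate 1, like that of cox1, ccb206, ccb382, ccb452, matR and orfX. The part of these controls in the differences of the 8 genes was not tested beyond the scaling that follows.

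**Figure D3:**
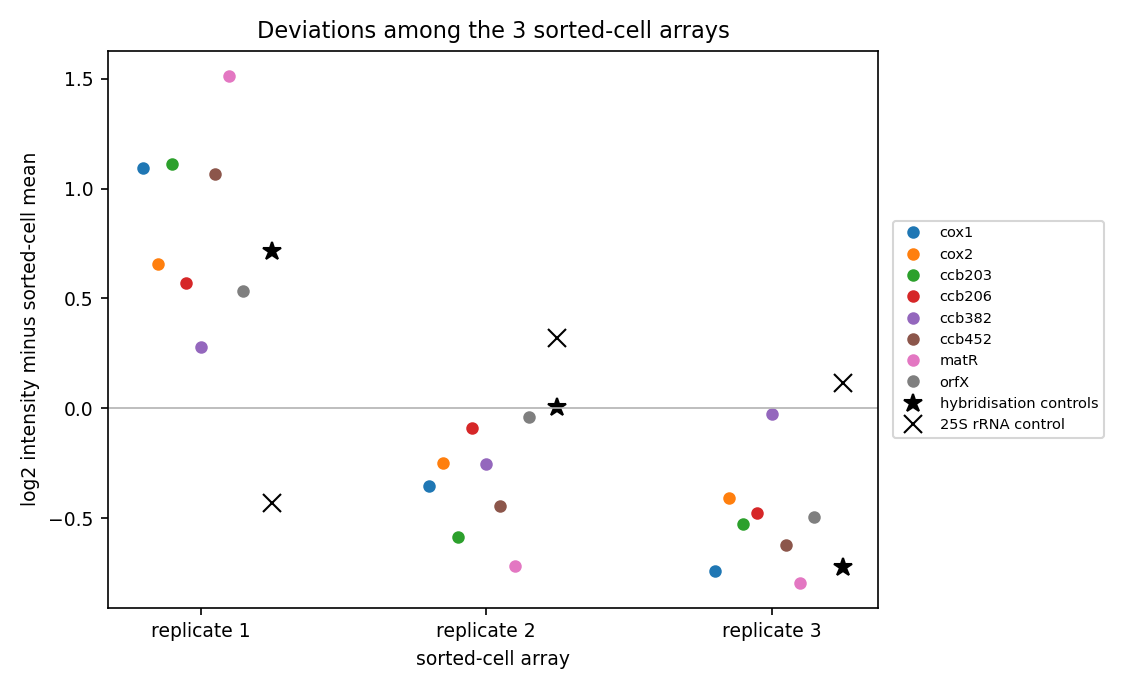
Log2 intensity on each sorted-cell array minus the mean of the 3 sorted-cell arrays, for the 8 mitochondrial genes (coloured points), the mean of 18 hybridisation controls (stars) and the 25S ribosomal RNA control (crosses). The genes and the hybridisation controls are highest on replicate 1, where matR deviates most, and 25S is lowest there.

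When every array was shifted so that its hybridisation controls had the same mean, every difference became smaller by 1.61 on the log2 scale, and those of the tested genes kept their direction. cox1 stood at 4.58 on the log2 scale, orfX at 4.51, ccb452 and cox2 at 2.69 each, matR at 2.45, ccb382 at 1.99 and ccb206 at 1.35. The 7 tested genes were again all called higher by limma, ccb206 with an adjusted p of 0.0158, where 4.09% of tested probe sets were. The median of all tested probe sets was -1.78 under this scaling, with 70.6% called lower. Since the shift is the same for every probe set, the distance of the genes from that median did not change. Among sorted cells, the median excess on replicate 1 was 0.22 after it, but the genes went both ways: matR stood at 1.20 and ccb203 at 0.59, and orfX at -0.27 and ccb382 at -0.65. The median log2 SD of the 8 genes was 0.39 after it and 0.75 before, while that of ccb382 was 0.61 after it and 0.27 before.

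**Figure D4:**
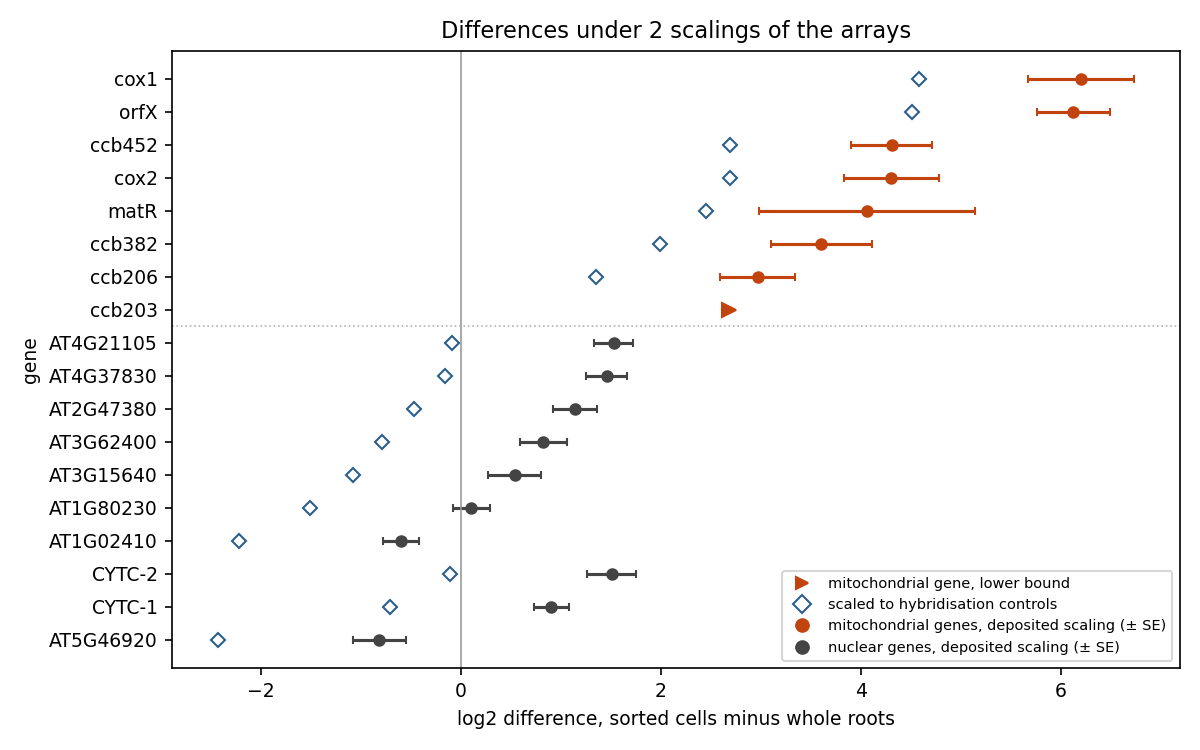
Log2 difference (sorted cells minus whole roots) of the 8 mitochondrial genes and 10 nuclear genes with the deposited scaling (filled circles, bars are SE) and with arrays scaled to the hybridisation controls (open diamonds); ccb203 is drawn as a lower bound. The 7 tested mitochondrial genes lie above 0 under both scalings, and ccb203 has no point for the control scaling. The nuclear genes that lie above 0 with the deposited scaling lie under it with the other.

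On log2 values without an offset, nuclear genes of the same pathways showed smaller differences than the 8 genes. With an offset of 64 this did not hold for all 8. AT4G21105 then stood at 1.41, AT4G37830 at 1.43 and the cytochrome c gene CYTC-2 at 1.31, above matR (1.30) and ccb203 (1.13). ccb206 was little higher, at 1.46, and the other mitochondrial genes were at 1.88 or more. Of 11 listed genes for small subunits of cytochrome oxidase, 8 had a probe set and were tested; 4 were called higher (against 24.7% of all tested probe sets), none lower by limma (against 30.7%, and none at an unadjusted p under 0.05 either) and 4 were not called, with a median log2 difference of 0.68. AT4G21105 read 1510, 1271 and 1206 in sorted cells, against 421, 509.4 and 450.4 in whole roots (log2 difference 1.53, SE 0.20; limma adjusted p = 0.000258). AT4G37830 stood at 1.46, AT2G47380 at 1.14 and AT3G62400 at 0.82; the last was not called once whole-root replicate 2 was left out (adjusted p = 0.0716 by limma). AT3G15640 at 0.54 and AT1G80230 at 0.11 were not called, though AT3G15640 was called without sorted-cell replicate 1 (0.83). With the arrays scaled to the hybridisation controls all 8 lay under 0, from -1.78 to -0.087; 3 were called lower, where 70.6% of tested probe sets were, and none higher, where 4.09% were. That change of sign is the shift of 1.61 common to all probe sets.

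Cytochrome c itself, the carrier that the ccb pathway matures, is encoded by CYTC-1 and CYTC-2 in the nucleus. CYTC-1 averaged 8587 ± 1065 in sorted cells and 4574 ± 268 in whole roots (SD, n = 3 each), a log2 difference of 0.90 (limma adjusted p = 0.00236). CYTC-2 averaged 760 ± 158 in sorted cells and 268 ± 59.2 in whole roots (1.51; limma adjusted p = 0.000931). Both were called with the deposited scaling, but stood at -0.71 and -0.11 with the hybridisation controls and were not called, and quantile normalization put CYTC-1 at 0.21, not called (adjusted p = 0.239 by limma). CCMH, a nuclear gene of the maturation pathway, was too dim to be tested, at 38.7 ± 8.90 in sorted cells and 31.4 ± 3.95 in whole roots.

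The oxidase assembly gene AT1G02410, which codes for a COX11 protein that delivers copper, was the one tested of 9 listed, and fell by 0.60 on the log2 scale (limma adjusted p = 0.0179). Leaving out whole-root replicate 1, 2 or 3 ended its call (0.066, 0.0679 and 0.0662 as limma's adjusted p), as did quantile normalization (0.071). A second measured assembly gene, AT1G53030, was too dim for the filter and went the other way, at 86.0, 36.0 and 57.9 in sorted cells and 13.3, 16.3 and 22.5 in whole roots (log2 difference 1.73; limma adjusted p = 0.0207 with no filter). Of 12 listed genes for mitochondrial transcription and intron splicing, 6 had a probe set and 1 was bright enough to be tested. This was AT5G46920, a nuclear maturase gene related in kind to matR, which read 165.5, 181.2 and 97.8 in sorted cells and 278.7, 214.3 and 267.2 in whole roots (log2 difference -0.81; limma adjusted p = 0.0278). Its call ended with quantile normalization (-0.66, limma adjusted p = 0.0604), without sorted-cell replicate 3 (0.0732) and without whole-root replicates 1 or 3 (0.093 and 0.0877). The measured genes of this list that were too dim for the filter read lower in sorted cells too, from -0.52 (NMAT3) to -2.41 (RPOTMP). Of these only RPOTMP was called with no filter (limma adjusted p = 0.0145), where 18.7% of probe sets were called lower, and its sorted-cell values were all under the background level. NMAT4, OTP43 and BIR6 were above that level on only 1 sorted-cell array each. The common direction of these dim genes was not set against a share of all dim probe sets and carries no weight. None of 5 listed alternative oxidase genes had a probe set with 1 symbol.

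Ratios between genes on the same array do not depend on how arrays are scaled, and 3 pairs were compared. cox1 over cox2 was 5.75, 5.20 and 4.97 (log2) in sorted cells and read 2.66, 3.38 and 4.18 in whole roots. On whole-root replicates 1 and 3 cox2 was under the background level, so a shift in this ratio cannot be established. The difference of these readings, 1.90, had an exact two-sided permutation p of 0.1, or 0.3 adjusted over the 3 pairs, and the design cannot go lower than 0.1. ccb382 over ccb452 was 0.083, 1.06 and 1.47 in sorted cells and 0.53, 2.49 and 1.71 in whole roots, with overlapping groups (exact permutation p = 0.4, adjusted 0.5). ccb382 over ccb203 was 3.60, 4.77 and 4.94 in sorted cells and 2.60, 6.85 and 7.24 in whole roots, also overlapping (exact permutation p = 0.5, adjusted 0.5), with ccb203 under the background level in whole roots. These levels are ratios of different probes and say nothing of the ratio of transcripts, only whether it shifted.

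Across the 6 arrays the log2 values of the 28 pairs of these genes correlated at 0.67 to 1.00, with a median of 0.94, which the gap between the groups sets in large part. Of the deviations from the group means the correlation was -0.43 to 0.97, with a median of 0.68 over the same 6 arrays. Of 7334 other tested probe sets with 1 symbol, AT2G07695, AT3G11150, MYBC1, nad4, AT2G32020 and AT5G28750 came closest to the mean of the 8 genes (Pearson's r of log2 values over 6 arrays, 0.998 to 0.999). AT2G07695, the closest, is annotated on nuclear chromosome 2 and averaged 731 ± 379 in sorted cells and 29.9 ± 7.66 in whole roots. Its probe set name ends in _s_at, and the loci AT2G07696 and AT2G07698 share probe sets with mitochondrial rps7 and atp1. Signal of the organelle and of the nuclear locus thus cannot be told apart for AT2G07695, which is not to be read as an independent nuclear gene. nad4 codes for a subunit of complex I and MYBC1 is a nuclear MYB-type gene, with differences of 7.98 and 2.20 on the log2 scale.

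By deviations from the group means alone, the closest were AT4G10925, AT2G35410, AT1G68160, ATSIK, AT1G03730 and AT2G04795, all nuclear, at r of 0.993 to 0.997 over the same arrays. Their differences between the groups went both ways. AT4G10925 differed by -0.43, AT2G35410 by 0.13 and AT1G68160 by -0.42 on the log2 scale, none of them called. ATSIK was lower in sorted cells (-1.01, limma adjusted p = 0.00733), while AT1G03730 (1.61, limma adjusted p = 0.000505) and AT2G04795 (1.56, limma adjusted p = 0.00556) were higher.

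Other mitochondria-encoded genes with a single symbol were all of complex I: 15 probe sets of 8 nad genes, of which 12 were tested and 11 called higher, against 24.7% of tested probe sets. All 12 had whole-root means under the filter level, from 0.587 to 34.7, and so passed only through their sorted-cell signal, which leaves this count without weight. Of the 3 not tested, those of nad7 (log2 difference 0.20) and nad2 (1.34) had overlapping groups. On the RefSeq mitochondrial genome, used for gene order only, orfX lies between nad4 and rpl2, and ccb452 between rpl5 and nad4. These 3 neighbours differed by 6.12 (orfX), 7.98 (nad4) and 4.31 (ccb452). ccb206 and cox2 also adjoin each other, at 2.97 and 4.30.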

How the data were processed

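RNA of 3 sorted-cell and 3 whole-root samples went through Affymetrix's amplification in a pair of cycles before hybridisation, per the labels' protocols, with an array for every sample. The deposited values are linear MAS5 signal intensities, as the submitters' processing notes name the method; its version and scaling target were not found there. Trimmed means (2% at each end) were 250.02 to 250.03 on all arrays, so the values were used as deposited; the number of arrays limits the precision. After removal of 64 control probe sets, those in the lowest 40% by mean intensity were dropped, which left 13647. Sorted cells minus whole roots was fitted on log2 values by lmFit and eBayes with a variance trend (limma 3.58.1, R 4.3.3), with Benjamini-Hochberg adjusted p-values under 0.05 called; the script was tested on simulated data. Other values came from scipy 1.17.1, pandas 2.3.3 and numpy 2.4.6 under Python 3.11.15, and plots from matplotlib 3.10.9. Of 22810 probe sets, 13513 have 1 symbol and 503 several in the platform annotation; RefSeq TAIR10.1 gave names. All 8 genes, up to 4 called and 2 other genes per pathway list, and the 6 probe sets closest in pattern by each of 2 measures were named. AT1G53030, NMAT3, NMAT4, OTP43, BIR6, RPOTMP, nad7, nad2 and the medians of plastid and of other mitochondrial probe sets were chosen after their values were seen. Genes, lists and tests were chosen with earlier results of these data known; nuclear lists came from general knowledge of Arabidopsis loci. Settings also tried were offsets of 16 and 64, median centring, quantile normalization, no filter, a 60% filter, no trend, robust variance, a replicate block, each array left out and a 2-fold threshold. Scaling to 18 hybridisation controls was added after seeing the data.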

Additional observations from a re-analysis of the deposited data

Results flagged for a closer look

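Data outside the comparisons above held a signal of the same kind. The annotation pairs 12 further probe sets with a mitochondrial gene and with a second symbol, in most cases a locus of chromosome 2, so none of them can be given to 1 gene. Their median log2 difference, sorted cells minus whole roots, was 4.29, over a range of 2.33 to 6.43. All 12 were tested and called higher by limma, against 24.7% of tested probe sets, but 8 of them had whole-root means under the filter level and passed only through their sorted-cell signal, so the count carries no weight. For all 12 the lowest sorted-cell array was above the highest whole-root array, against 28.8%. The same selection by the filter favours such a gap, so this count carries no weight either. Groups of 3 are too small for a test of single outlying arrays.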

How the results depend on the processing

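The 7 tested mitochondrial genes kept their direction and their call in every alternative setting in which they were tested, with limma adjusted p of at most 0.0297. There were 15 or 16 such settings per gene, which makes 109 results over the 7 genes, all from the same arrays. Settings that changed only the filter, the variance model or the blocking left the differences themselves as they were. The number called was 4 under a filter that drops the dimmest 60%, because only 4 passed that filter, and 7 without each array in turn. The size depended more on the setting: matR ran from 1.30 to 4.73, cox2 from 1.88 to 4.67 and ccb206 from 1.35 to 3.20 on the log2 scale. Scaling to the hybridisation controls, added after seeing the data, had the widest effect: 558 probe sets were called higher and 9640 lower, against 3377 and 4187. Under it AT4G21105 stood at -0.087, AT4G37830 at -0.16, AT2G47380 at -0.47, AT3G62400 at -0.79, AT3G15640 at -1.08, AT1G80230 at -1.51, CYTC-2 at -0.11 and CYTC-1 at -0.71, against values above 0 with the deposited scaling; of the small oxidase subunits 0 were called higher and 3 lower, and of the cytochrome c list 0 higher. In that list 1 was called with quantile normalization and 1 at 2-fold or more. In the list of transcription and splicing the number called lower was 0 with quantile normalization, 0 at 2-fold or more, 2 with no filter and 0 to 1 without single arrays. Without single arrays 2769 to 3722 probe sets were called higher, 3179 to 4549 lower, and 3 to 5 small oxidase subunits higher. A replicate block gave 3068 higher and 3747 lower, left all 7 mitochondrial genes called (matR at an adjusted p of 0.0235) and ended the call of AT1G02410 (0.0589); same-numbered samples did not deviate together (r of -0.29, -0.16 and -0.042), so the numbers were not taken as pairs. The causes were not tested. No gene had a second probe set to try. Whole-root signal near or under the background level limits the size of the differences of cox2, ccb203 and matR.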
